A study of Homo sapiens with 30 samples.

Results

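The collagen, laminin and integrin genes are a set of 64 protein-coding genes that build the matrix under and around cells and the receptors that hold cells to it. They were taken from 82 collagen, laminin and integrin genes by level alone: the mean normalised read count had to reach 50 in at least 1 of the 6 groups of libraries. The set holds 33 of 44 collagen chains, 11 of 12 laminin chains, 13 of 18 integrin alpha chains and 7 of 8 integrin beta chains, out of 38122 genes measured. The level that chose the members is no result. The members nearest above it were COL14A1 at 55.0 and COL8A2 at 73.6, and the genes nearest below it were ITGB3 at 41.8 and ITGAD at 33.2 in their highest group.

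RNA was sequenced from 3 established human cancer lines: FaDu, a squamous line of the hypopharynx, HCT116, a line of the colon, and SiHa, a squamous line of the cervix. Cells of each line were kept in medium of pH 7.4 or of pH 6.5 (at least 1 month for the acidic cells), which gives 6 groups of 5 libraries. All groups shared DMEM with 10% fetal bovine serum, 10 mM glucose and 2 mM glutamine, buffered by 25 mM HEPES and 25 mM PIPES at 37 °C and 5% CO2, so acidity is the labelled difference within a line. Each group is a single line in monoculture, with no fibroblasts, vessels or immune cells supplied, and no label states that the libraries of a group are separate cultures. The p-values reflect the scatter among these libraries and nothing wider.

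Epithelial cells rest on a basement membrane, a sheet made of a laminin network and a collagen IV network linked by nidogen and perlecan. Integrins are pairs of an alpha and a beta chain in the cell membrane that bind these proteins outside and the cytoskeleton inside. In squamous epithelium the pair α6β4, with collagen XVII, forms the hemidesmosome, which anchors keratin filaments to laminin-332, whose chains include LAMA3 and LAMB3. Collagen VII then ties the basement membrane to the connective tissue below. Fibrillar collagens such as I, III and V, and the fibril-associated collagens such as XII, belong to that connective tissue and are made mostly by fibroblasts, though tumour cells can express them.

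The 6 collagen IV genes lie in 3 pairs transcribed away from each other, and 2 of these pairs behaved differently in the data, so their start regions are shown. RefSeq (GRCh38.p14) places the COL4A1 and COL4A2 starts 127 bases apart on chromosome 13 and those of COL4A5 and COL4A6 380 bases apart on the X chromosome. Each window runs 5′ to 3′ on the gene's own strand, from 250 bases before the start to 50 after it. Capitals mark the CCAAT box (CCAAT, or ATTGG on the other strand) and the GC box (GGGCGG, or CCGCCC).
COL4A1, chr13:110307108-110307407, minus strand: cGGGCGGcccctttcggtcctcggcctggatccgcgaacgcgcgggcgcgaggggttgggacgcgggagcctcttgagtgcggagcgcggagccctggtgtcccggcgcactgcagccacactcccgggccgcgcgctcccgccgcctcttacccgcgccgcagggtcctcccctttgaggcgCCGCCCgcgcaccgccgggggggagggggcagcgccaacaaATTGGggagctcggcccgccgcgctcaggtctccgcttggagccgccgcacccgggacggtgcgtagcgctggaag
COL4A2, chr13:110307034-110307333, plus strand: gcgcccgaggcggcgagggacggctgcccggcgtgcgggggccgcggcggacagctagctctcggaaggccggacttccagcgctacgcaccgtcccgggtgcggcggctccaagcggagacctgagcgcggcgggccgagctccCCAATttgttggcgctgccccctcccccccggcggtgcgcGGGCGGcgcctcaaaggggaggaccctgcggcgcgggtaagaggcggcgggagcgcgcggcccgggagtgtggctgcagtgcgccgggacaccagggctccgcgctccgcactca
COL4A5, chrX:108439588-108439887, plus strand: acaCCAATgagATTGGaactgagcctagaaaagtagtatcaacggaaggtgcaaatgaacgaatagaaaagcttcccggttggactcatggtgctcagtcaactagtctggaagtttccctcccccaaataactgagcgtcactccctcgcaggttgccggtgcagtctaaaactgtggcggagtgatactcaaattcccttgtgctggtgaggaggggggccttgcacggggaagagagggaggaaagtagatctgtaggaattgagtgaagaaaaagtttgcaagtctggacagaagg
COL4A6, chrX:108439409-108439708, minus strand: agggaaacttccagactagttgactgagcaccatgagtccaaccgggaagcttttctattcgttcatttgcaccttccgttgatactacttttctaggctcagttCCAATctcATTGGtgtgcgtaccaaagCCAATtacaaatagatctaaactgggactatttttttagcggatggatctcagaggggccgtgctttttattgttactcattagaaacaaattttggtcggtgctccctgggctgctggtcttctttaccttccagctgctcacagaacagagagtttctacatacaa
The COL4A1 and COL4A2 windows shared 226 bases and those of COL4A5 and COL4A6 shared 121. The first pair was 76.7% and 77.7% G or C, with 2 and 1 GC boxes. The second pair was 49.3% and 43.7% G or C, with no GC box and with 2 and 3 CCAAT boxes. A CCAAT box was found in 34.6% of all 35116 RefSeq windows and in 15 of the 61 windows of members (24.6%), and a GC box in 45.0% and 62.3%. Windows were found for 47 members. These matches describe the letters only.

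Each library held 21.02 to 55.68 M reads, so that 3 reads, taken as the floor of detection, equal 1.90 to 5.01 normalised counts. Among the 30, 9 libraries did not match the rest of their group and were kept apart. FaDu pH 7.4 replicates 2 to 5 carried genes restricted to HCT116 at 30.6% to 80.4% of their HCT116 level, and HCT116 pH 6.5 replicates 5 to 7 carried genes restricted to SiHa at 37.5% to 104%. In SiHa pH 7.4 replicates 6 and 7 the mesenchymal gene VIM stood at 2817 and 2863. The fibroblast marker list summed to 8523 and 9756 in them, against 3231 to 4526 in the other SiHa libraries of pH 7.4. That list includes VIM itself and COL1A2, at 938 and 1377 in them, so its sum is not independent of VIM. COL1A1, COL3A1, PDGFRA, PDGFRB, ACTA2 and TAGLN also had higher means there than in the other SiHa libraries of pH 7.4. DCN, LUM, FAP and THY1, the rest of the list, had lower means. In the 21 libraries kept, genes of another line reached at most 0.0708%. For FaDu and SiHa at pH 6.5 and HCT116 at pH 7.4 a low value was fixed beforehand, because those libraries defined the restricted genes. In the kept libraries of the other groups the highest value was 0.0465%, of SiHa genes in HCT116 pH 6.5 replicate 1. This left 5 libraries at pH 6.5 against 3 at pH 7.4 in SiHa, 2 against 5 in HCT116 and 5 against 1 in FaDu. All values below are from these 21 libraries unless a sentence says otherwise, in the order of the replicate numbers. Where a sentence gives a level "from" one value "to" another, the first is that of pH 7.4 and the second that of pH 6.5, and a change is the log2 difference of pH 6.5 over pH 7.4 with its standard error.

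**Figure D1:**
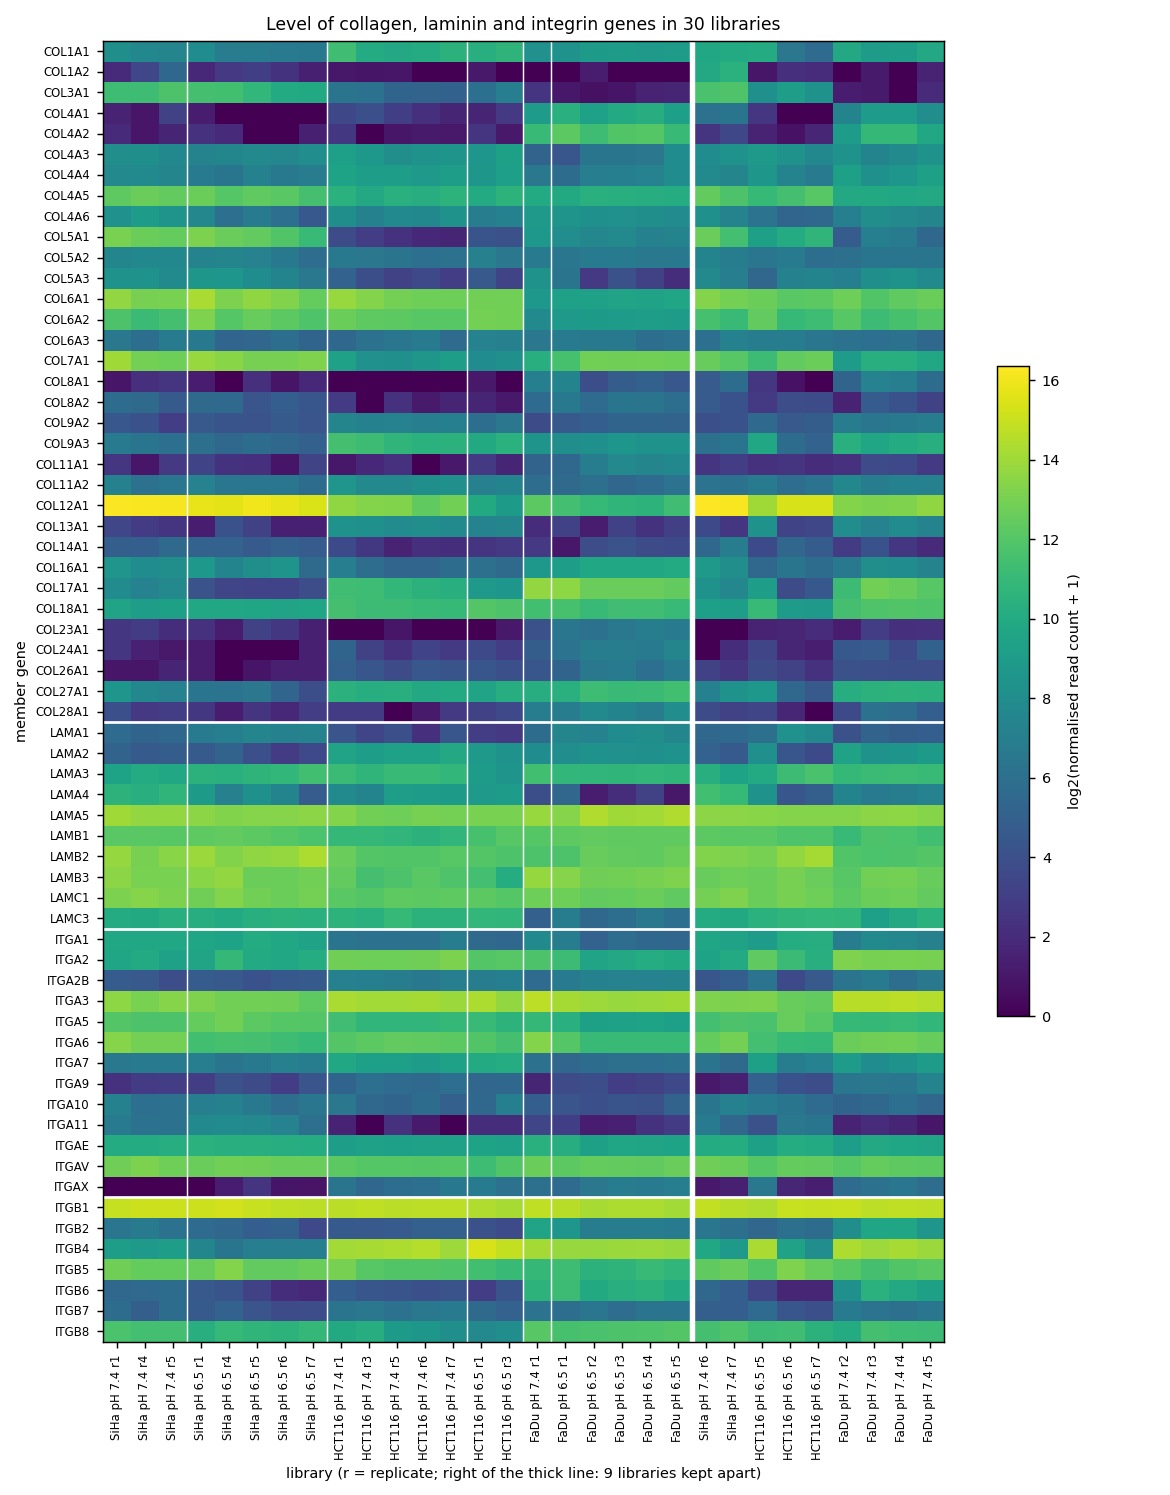
Levels of the members shown (rows, grouped as collagens, laminins, integrin alpha and integrin beta chains) in the 30 libraries (columns), as log2(normalised read count + 1). The 9 libraries right of the thick white line were kept apart: HCT116 pH 6.5 replicates 6 and 7 look like SiHa, for example in the high COL12A1 and low ITGB4, and FaDu pH 7.4 replicates 2 to 5 show HCT116 features such as COL13A1.

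The lines differed in which members reached the level. By the libraries kept, 37 members reached a group mean of 50 in all 3 lines, 11 in 2 lines and 14 in a single line. COL14A1 and COL1A2 did so in none. COL1A2, a chain of fibrillar collagen I, reached its level only through SiHa pH 7.4 replicates 6 and 7, at 938 and 1377, against 3.06, 10.4 and 42.9 in replicates 1, 4 and 5. In FaDu alone 10 members reached 50. They included both main collagen IV chains, collagens VIII, XXIII, XXIV, XXVI and XXVIII, the COL11A1 chain of collagen XI and integrin β6. COL13A1, COL9A2 and ITGA9 did so in HCT116 alone and ITGA11, a collagen-binding integrin of mesenchymal cells, in SiHa alone. A level under 50 is not absence: COL9A2 had means of 32.7 in FaDu and 20.2 in SiHa at pH 6.5, above the floor. Because a member could enter the set through 1 line, differences between lines are given here as a description, with no test.

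Per kb of exon, ITGB1, the beta chain shared by most collagen and laminin receptors, was the highest member in 5 of the 6 groups. It stood at 8719.8 normalised counts per kb in SiHa, 6874 in HCT116 and 7243 in FaDu at pH 7.4. In SiHa COL12A1, a collagen that decorates fibril surfaces, came second at 6213 per kb. In HCT116 at pH 6.5 ITGB4 (5775 per kb) stood above ITGB1 (5158), although the 42191 and 29263 normalised counts of its libraries differ widely. ITGA3, which pairs with β1 to bind laminin-332, was among the 7 highest members per kb in every group.

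SiHa held the highest levels of several connective tissue collagens, but the lowest of COL1A1, a chain of fibrillar collagen I. At pH 7.4 COL1A1 stood at 221 in SiHa, 1424 in HCT116 and 313 in the single FaDu library, and at pH 6.5 at 139, 1407 and 455. COL3A1, the chain of fibrillar collagen III, stood at 2819 ± 625 normalised counts at pH 7.4 (mean ± SD, n = 3) and at 51.2 ± 21.4 in HCT116 (n = 5). COL5A1, which starts collagen fibrils, stood at 6977 ± 1424 and 5.69 ± 4.35. ITGB4 showed the opposite order, with 519.7 ± 62.5 in SiHa and 19308 ± 2836 in HCT116. ITGAX, a leukocyte integrin chain, was at 0 in all 3 SiHa libraries of pH 7.4 and at 76.3, 45.3, 58.4, 62.6 and 98.5 in HCT116. HCT116 also held more COL9A3, LAMA2 and COL13A1, at 1965, 714 and 272 against 82.2, 29.1 and 7.11. COL7A1 and COL5A3 were lower in HCT116, at 442 and 15.0 against 10565 and 285.

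FaDu held the highest levels of COL17A1 and ITGB6. At pH 6.5 (n = 5 in both lines) COL17A1 stood at 7343 ± 2782 in FaDu and 11.7 ± 3.82 in SiHa, and ITGB6, an epithelial chain that activates TGF-beta, at 1413 ± 578 against 22.9, 18.2, 8.07, 3.45 and 2.56 in the SiHa libraries. COL3A1 was at 1.38 ± 0.712 in FaDu, under the floor, and COL12A1 at 2126 ± 570.4 against 55372 ± 7631 in SiHa. The HCT116 libraries of pH 6.5 (n = 2) held more LAMC3, ITGA7 and LAMA4 than those of FaDu, at 1789 against 75.8, 1076 against 58.4, and 459 and 512 against 40.6, 1.39, 3.50, 8.36 and 1.10. In FaDu only replicate 1 held LAMA4 well above the floor. COL23A1 and COL11A1 stood at 0 and 1.14 and at 5.72 and 2.28 in HCT116 and at means of 95.4 and 149 in FaDu.

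The largest called changes at pH 6.5 were falls in SiHa (COL17A1, LAMA4 and ITGB6) and in HCT116 (COL12A1, LAMA3 and COL17A1), and rises in FaDu (COL23A1 and COL7A1). In SiHa 54 members were high enough to test and 20 were called at a limma adjusted p under 0.05, 4 higher and 16 lower, where 31.2% of all genes were called (15.0% higher and 16.2% lower). The median log2 change of the members tested was -0.30, against -0.01 over all genes. In HCT116 19 of 54 were called, 6 higher and 13 lower, where 20.2% of all genes were called (9.11% and 11.1%), with medians of -0.22 and -0.01. In FaDu 10 of 60 were called, 7 higher and 3 lower, where 7.36% were called (4.24% and 3.12%), with medians of -0.06 and -0.01. Of the 64 members 36 were called in at least 1 line and 28 in none. COL6A2 was called higher and ITGA6 lower in all 3 comparisons, of which that of FaDu has a single library at pH 7.4 and no call that held in every omission of a library (0 of 10). ITGB4 and LAMA3 were called in opposite directions in different lines.

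The libraries kept apart changed this picture where they were put back under their labels. In SiHa 7 members were then called higher and 20 lower (40.8% of all genes called, 19.7% higher and 21.1% lower), and all 20 earlier calls held. In HCT116 4 were called higher and 7 lower (18.2%, 8.56% and 9.62%), and 12 of the 19 calls were lost, among them COL12A1 (-0.37, adjusted p = 0.833) and LAMA3 (-0.88, adjusted p = 0.250). In FaDu 17 were called higher and 21 lower (46.3%, 24.0% and 22.3%), and 2 of the 10 calls, COL6A1 and COL6A2, turned around.

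**Figure D2:**
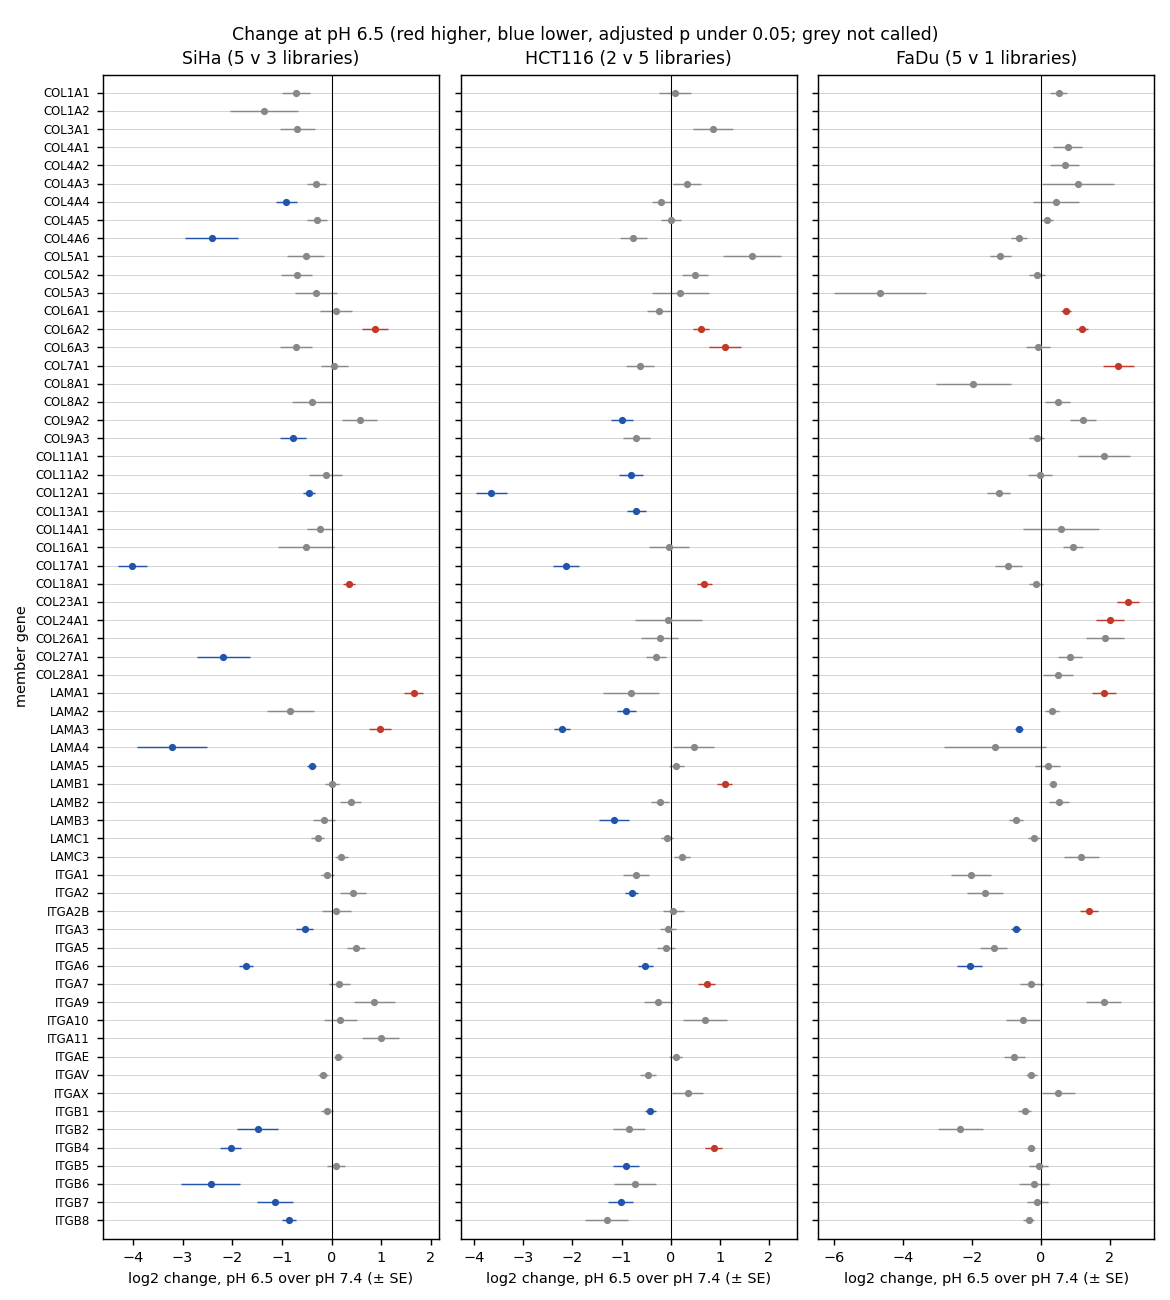
Log2 change at pH 6.5 over pH 7.4 with its standard error for the members shown that were tested, in SiHa, HCT116 and FaDu. Red and blue points are members called higher and lower by limma (adjusted p under 0.05) and grey points are not called: 15 of the 19 called points in SiHa and 13 of the 19 in HCT116 lie left of 0, and 7 of the 10 in FaDu lie right of it.

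In SiHa the sums of marker lists moved with pH, though not every gene of a list moved with its sum. The squamous epithelium list (10 genes) summed to 15386 to 19341 at pH 7.4 and to 7846 to 14060 at pH 6.5, so the groups did not overlap. The fibroblast list (12 genes, of which COL1A1, COL1A2 and COL3A1 are members here) summed to 3231 to 4526 and to 1467 to 3814. The colon epithelium list (10 genes) summed to 611 to 787 and to 289 to 543. In HCT116 the squamous list summed to 16182 to 24198 at pH 7.4 and to 12840 and 22126 at pH 6.5, and the colon epithelium list to 2803 to 3846 and to 2618 and 3136. The part of these shifts in the results below was not tested.

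The hemidesmosome genes include the largest change in SiHa. COL17A1 (ENSG00000065618), the transmembrane collagen of the hemidesmosome, fell in both SiHa and HCT116. Its SiHa libraries held 240.3, 152 and 211 at pH 7.4 and 17.5, 9.79, 8.97, 8.62 and 13.7 at pH 6.5, a log2 change of -4.01 ± 0.29 (SE, limma adjusted p = 1.75e-05). Every library of pH 6.5 was far below the lowest of pH 7.4. In HCT116 the gene stood at 2558, 2517, 1794, 1442 and 1244 at pH 7.4 and at 452 and 386 at pH 6.5, a change of -2.13 ± 0.26 (adjusted p = 0.000157). The groups did not overlap, and both calls held in every omission of a library.

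ITGA6 (ENSG00000091409), the alpha chain of the laminin receptors α6β4 and α6β1, fell by 1.72 ± 0.15 on the log2 scale in SiHa (limma adjusted p = 4.73e-05). Its SiHa libraries held 10529, 8017 and 7821 at pH 7.4 and 2724, 3134, 2945, 2527 and 2002 at pH 6.5. In HCT116 the change was -0.51 ± 0.15 (adjusted p = 0.0348), from 3992, 4906, 5591, 5328 and 4771 to 3899 and 3004. The highest library of pH 6.5 came close to the lowest of pH 7.4, and the HCT116 call was lost when replicate 3 of pH 6.5 was left out, or any of replicates 3, 5, 6 and 7 of pH 7.4 (adjusted p 0.0635 to 0.241). In FaDu it stood at 4229.9, 2075, 2089, 2189 and 2197 at pH 6.5 and at 10219 in the single library of pH 7.4 (change -2.06 ± 0.37, adjusted p = 0.0258). That call was lost on leaving out any 1 of replicates 2 to 5 of pH 6.5 (adjusted p up to 0.0806). Genes on the opposite strand, among them ITGA6-AS1, cover part of the ITGA6 exons, and whether the counting used strand is not given in the sources used here.

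ITGB4 (ENSG00000132470), the partner of α6 in the hemidesmosome, moved in opposite directions. It fell in SiHa, from 543, 449 and 567 to 179, 81.2, 126, 127 and 134 (change -2.03 ± 0.22, limma adjusted p = 0.000158). It rose in HCT116, where its level is far higher, from 17252, 19386, 20505, 23319 and 16079.5 to 42191 and 29263 (change 0.88 ± 0.17, adjusted p = 0.00407). Without HCT116 pH 6.5 replicate 1, the higher of the pair, the HCT116 change was 0.61 and was not called (adjusted p = 0.0736). With the libraries as labelled ITGB4 in HCT116 stood at -1.84. Replicates 5, 6 and 7 of pH 6.5, which carry SiHa genes, held 20142, 686 and 257.

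Of the laminin-332 chains, LAMA3 (ENSG00000053747) rose in SiHa and fell in HCT116. Its SiHa libraries held 711, 1055 and 910.3 at pH 7.4 and 1449, 1345, 1593, 1824 and 2755 at pH 6.5 (change 0.98 ± 0.21, limma adjusted p = 0.00665). Those of HCT116 held 2268, 1700.0, 2053, 2084 and 1822 at pH 7.4 and 514 and 351 at pH 6.5 (change -2.21 ± 0.17, adjusted p = 4.07e-06). Neither pair of groups overlapped. LAMB3 fell in HCT116, from 4046 to 2862 and 1105 in the 2 libraries (change -1.15 ± 0.31, adjusted p = 0.021). It rested on replicate 3, without which the change was -0.46 (adjusted p = 0.279), while without replicate 1 it was -1.84. In SiHa LAMB3 was at 9720.3 ± 1826 and 9027 ± 2958 and was not called.

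**Figure D3:**
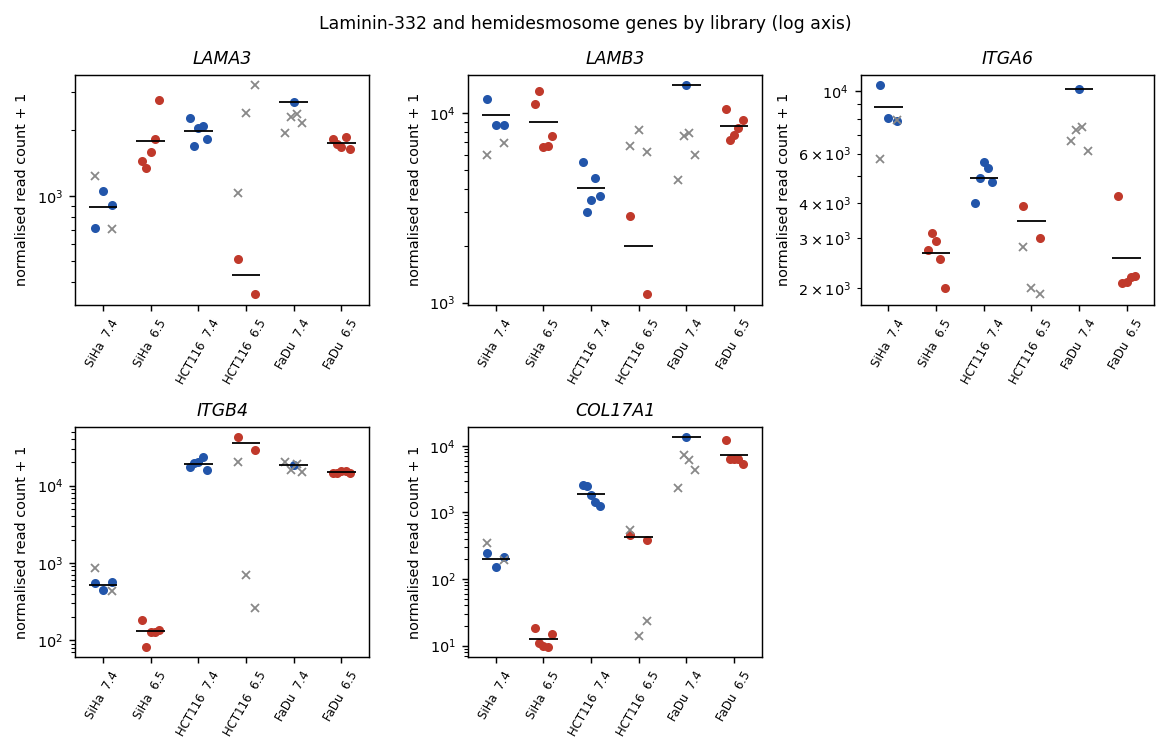
Normalised read count + 1 (log axis) of LAMA3, LAMB3, ITGA6, ITGB4 and COL17A1 in each library, blue for pH 7.4 and red for pH 6.5, with the mean of the libraries kept as a line and libraries kept apart as grey crosses. COL17A1 is lower at pH 6.5 in every kept SiHa and HCT116 library, LAMA3 moves up in SiHa and down in HCT116, and the crosses of HCT116 pH 6.5 reach the SiHa level of ITGB4.

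Of 9 other genes of the hemidesmosome and the tetraspanins beside it, 1 rose and 2 fell in SiHa and 2 of 8 tested fell in HCT116, shares near those of all genes called (31.2% and 20.2%). The linker protein PLEC, which joins β4 to keratin, stood at a change of -0.32 in SiHa, TSPAN8 at -2.81 and CD63, which rose, at 0.37. In HCT116 the linker DST fell by 1.18 on the log2 scale, from 16328 to 7339.5, and CD9 by 0.41.

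Among the other laminin alpha chains LAMA1 and LAMA4 moved most. LAMA1 (ENSG00000101680), a chain of embryonic and some epithelial basement membranes, rose in SiHa, from 51.9, 36.9 and 45.1 to 112, 130.1, 170.3, 145 and 156 (change 1.65 ± 0.20, limma adjusted p = 0.000264). Each library of pH 6.5 lay well above all of pH 7.4. In HCT116 LAMA1 was near the floor, at means of 13.4 at pH 7.4 and 6.29 at pH 6.5. LAMA4 (ENSG00000112769), best known from vessel walls and mesenchyme, fell in SiHa, from 1503, 1197 and 1688 to 489, 139, 301, 166 and 26.5 (change -3.21 ± 0.70, adjusted p = 0.00658). The libraries of pH 6.5 ranged widely, and without replicate 7, the lowest, the change was -2.58, still called. In HCT116 LAMA4 was not called (391 and 486).

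LAMA5, the main alpha chain of adult epithelial basement membranes, fell in SiHa, from 16773, 13659 and 13242 to 11515, 9947, 10868, 10742 and 11744 (change -0.40 ± 0.10, limma adjusted p = 0.0114, and 0.0514 without pH 7.4 replicate 1). LAMA2, the chain of muscle laminin, fell in HCT116, from 745, 584, 661, 645 and 936 to 435 and 326 (change -0.90 ± 0.20, adjusted p = 0.00733, and 0.0815 without pH 6.5 replicate 3). LAMB1, a beta chain of laminins 111 and 411, rose in HCT116, from 1894, 1876, 1747, 1456 and 1740.4 to 3154 and 4379 (change 1.10 ± 0.16, adjusted p = 0.000498). Its groups did not overlap and its call held in every omission. In SiHa LAMB1 stood at 4525 and 4597, not called. LAMB2, a beta chain of laminins in nerve, muscle and kidney, and the gamma chains LAMC1 and LAMC3 were called in no line, with changes between -0.28 and 0.38 in SiHa and between -0.22 and 0.24 in HCT116.

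Of 30 other proteins of basement membrane and matrix, 21 were tested in SiHa, where 4 rose and 7 fell, and 17 in HCT116, where 0 rose and 7 fell (of all genes, 15.0% and 16.2% in SiHa and 9.11% and 11.1% in HCT116). FNDC1, a fibronectin domain protein, rose in SiHa from 9.19 to 490.3, and in HCT116 it was at a mean of 13.6 at pH 7.4 and at 0 in both libraries of pH 6.5. The small proteoglycans LUM and DCN, which bind fibrillar collagen and are also on the fibroblast list, fell in SiHa from 136 to 11.7 and from 109.6 to 25.0. In HCT116 NPNT, a ligand of integrin α8β1, fell from 1542 to 729 and the microfibril protein FBN1 from 119 to 44.0.

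Collagen IV genes had different levels in the 3 lines. COL4A1 and COL4A2, the chains of the common α1α1α2 trimer whose start regions overlap above, reached the level in FaDu alone. COL4A1 stood at 1315, 652, 1035, 1147 and 596 in FaDu at pH 6.5 and at 525 in pH 7.4 replicate 1. COL4A2 stood at 4775, 2498, 3815, 4266 and 2172 at pH 6.5 and at 2068. Both genes had replicates 1, 4 and 3 of pH 6.5 highest, in that order. In the SiHa libraries kept COL4A1 reached at most 7.90 and COL4A2 at most 4.04, against 70.2 and 81.8 for COL4A1 in pH 7.4 replicates 6 and 7. In HCT116 they reached at most 14.8 and 5.30. These are the highest values, against a floor of 1.90 to 5.01. COL4A1 passed the floor of its library in SiHa pH 7.4 replicate 5 and in part of HCT116. In SiHa at pH 6.5 it was at 1.35, 0, 0, 0 and 0. COL4A2 passed the floor in no kept SiHa library and in HCT116 in replicate 1 of each pH alone. Low levels of COL4A1 and COL4A2 outside FaDu were thus detected in some libraries only. Neither was called in FaDu (changes 0.78 ± 0.43 and 0.70 ± 0.41, limma adjusted p = 0.272 and 0.313).

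COL4A5 and COL4A6, whose trimers occur in some epithelial and smooth muscle basement membranes, were expressed in all 3 lines, and in SiHa 1 gene of the pair was called. COL4A5 (ENSG00000188153) held 5079, 6391 and 5409 at pH 7.4 and 6522, 4262, 5193, 4689.9 and 2983 at pH 6.5 and was not called (change -0.29 ± 0.20, limma adjusted p = 0.293). COL4A6 (ENSG00000197565) held 314, 495 and 349.7 at pH 7.4 and 190.0, 61.6, 107, 62.0 and 21.3 at pH 6.5 and fell (change -2.42 ± 0.53, adjusted p = 0.00661). Its groups did not overlap, though the libraries of pH 6.5 spanned a wide range. The difference between both changes was not tested. In HCT116 COL4A6 was at 288, 147, 223, 198 and 319 at pH 7.4 and at 124 and 143 at pH 6.5, groups that did not overlap, but was not called (change -0.77 ± 0.27, adjusted p = 0.0693). In FaDu COL4A6 was at 356, 299.8, 307, 287 and 232 at pH 6.5 and at 457 in the single library of pH 7.4, not called either. COL4A5 had means of 1033 and 1181 in FaDu and of 1265 and 1271 in HCT116 at pH 7.4 and 6.5, and was called in neither.

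COL4A3 and COL4A4, the third pair, form the α3α4α5 network known from kidney and lung. COL4A4 (ENSG00000081052) fell in SiHa, from 211, 229 and 175 to 106, 81.2, 148, 96.5 and 119.6 (change -0.91 ± 0.20, limma adjusted p = 0.00753). COL4A3 overlapped between the groups, at 269.9, 278 and 194 at pH 7.4 and 158, 180.5, 212, 187 and 262 at pH 6.5, and was not called. In HCT116, where both were highest, neither was called (changes 0.33 and -0.19).

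**Figure D4:**
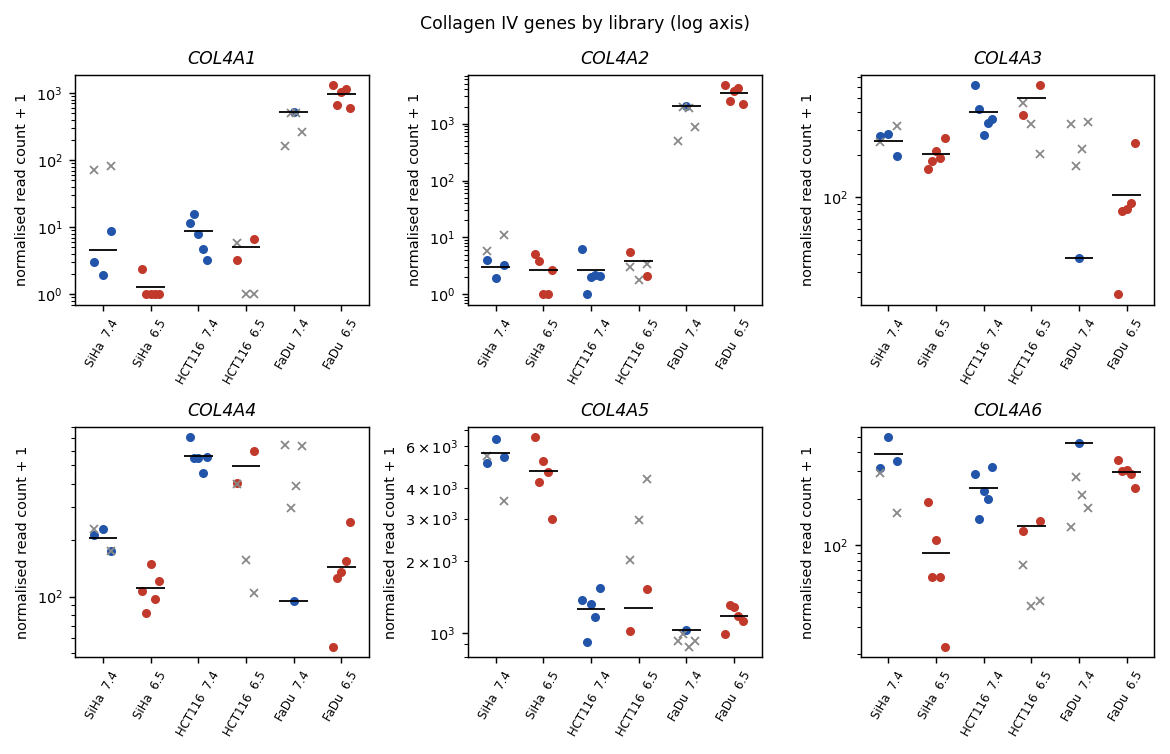
Normalised read count + 1 (log axis) of the 6 collagen IV genes by library, blue for pH 7.4, red for pH 6.5, line for the mean of the libraries kept and grey crosses for libraries kept apart. COL4A1 and COL4A2 are at 525 or more in every kept FaDu library and at 14.8 or less in kept SiHa and HCT116 libraries, and COL4A6 but not COL4A5 separates the pH groups in SiHa.

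COL18A1, whose end fragment is endostatin, rose in HCT116, from 2948, 2402, 2334, 2049 and 1979 to 3971 and 3512 (change 0.69 ± 0.16, limma adjusted p = 0.00994, and 0.0995 without pH 6.5 replicate 1). In SiHa the change was 0.35 ± 0.12 (adjusted p = 0.0458), with overlapping groups. That call was lost in 7 of 8 omissions of 1 library (adjusted p up to 0.181), all but that of pH 7.4 replicate 1. COL7A1, the anchoring fibril collagen, was not called in SiHa, where its means were 10565 ± 5603 and 10361 ± 2743, nor in HCT116 (442 ± 155 and 271 ± 27.6, adjusted p = 0.141).

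In the connective tissue collagens the clearest change was that of COL12A1 (ENSG00000111799). In HCT116 its libraries held 12757, 10031, 9822, 5230.2 and 7413 at pH 7.4 and 988 and 481 at pH 6.5, a log2 change of -3.65 ± 0.32 (limma adjusted p = 1.03e-05). The groups were far apart and the call held in every omission. The HCT116 pH 6.5 libraries kept apart, replicates 5 to 7, held 16427, 42289 and 41429 and so lay above every library of pH 6.5 that was kept. In SiHa, where COL12A1 was the most counted member, it held 77971, 75402 and 72442 at pH 7.4 and 57694, 53285, 65460.5, 56046 and 44374 at pH 6.5 (change -0.45 ± 0.12, adjusted p = 0.017). That smaller change was not called when replicate 1 or 4 of pH 7.4 was left out (adjusted p up to 0.0601).

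Collagen VI, a beaded filament collagen next to basement membranes, was higher at pH 6.5 in its COL6A2 chain. In SiHa COL6A2 (ENSG00000142173) held 3558, 2289 and 2924 at pH 7.4 and 9412, 4144, 6103, 4785 and 3628 at pH 6.5 (change 0.88 ± 0.27, limma adjusted p = 0.0285). In HCT116 it held 6654, 5110.3, 4759, 4359 and 4369 at pH 7.4 and 7930.3 and 7391 at pH 6.5 (change 0.62 ± 0.16, adjusted p = 0.0187). In FaDu it held 453, 483, 518, 570.2 and 529 at pH 6.5 and 222 in the library of pH 7.4 (change 1.19 ± 0.17, adjusted p = 0.0167). In none of the lines did the groups overlap, but in SiHa they nearly met, at 3558 and 3628. In FaDu the single library of pH 7.4 lay outside the range of pH 6.5 replicates 2 to 5 for 47 of 55 members. The share of all genes without overlap is not given here. Each call was lost in some omission. In SiHa it was that of replicate 5 of pH 6.5 and of replicates 4 and 5 of pH 7.4 (limma adjusted p up to 0.114). In HCT116 it was that of either library of pH 6.5 (up to 0.132) and in FaDu that of replicates 3 and 4 of pH 6.5. With the libraries as labelled COL6A2 stood at -0.20 in HCT116 and at -1.94 in FaDu, where pH 7.4 replicates 2 to 5, which carry HCT116 genes, held 4334, 2351, 3115 and 3988.

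The other collagen VI chains did not follow in all lines. COL6A1, the neighbour of COL6A2, overlapped between the groups in SiHa (10079 ± 2624 and 11428 ± 5341) and in HCT116, and was not called in either. COL6A3 rose in HCT116, from 42.4, 67.1, 84.6, 103 and 51.6 to 153 and 136 (change 1.11 ± 0.32, limma adjusted p = 0.0316). Its call was lost on leaving out either library of pH 6.5, or replicate 3 or 7 of pH 7.4 (adjusted p up to 0.188). In SiHa COL6A3 stood at a change of -0.72 ± 0.33 and was not called.

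**Figure D5:**
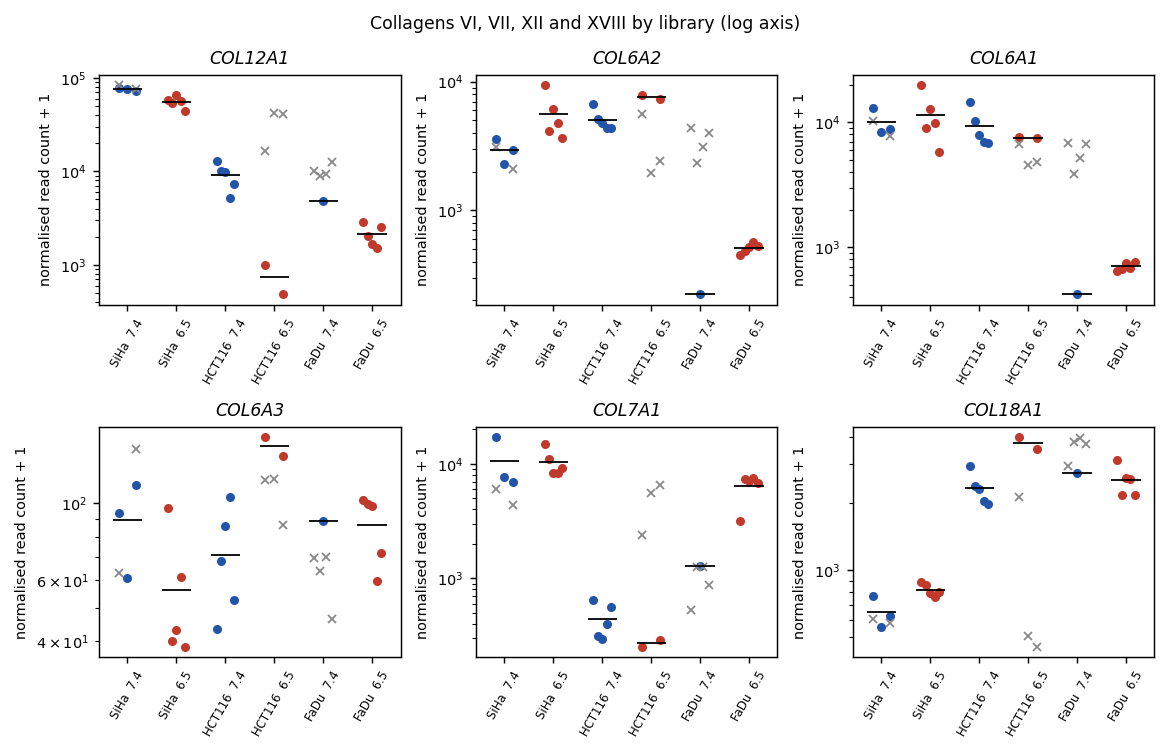
Normalised read count + 1 (log axis) of COL12A1, the 3 collagen VI chains, COL7A1 and COL18A1 by library, blue for pH 7.4, red for pH 6.5, line for the mean of the libraries kept and grey crosses for libraries kept apart. In the libraries kept COL6A2 is higher at pH 6.5 in each line without overlap, narrowly in SiHa and against 1 library in FaDu, and COL12A1 is lower in SiHa and HCT116. FaDu pH 7.4 replicates 2 to 5 lie at 2351 to 4334 for COL6A2 against 222 in replicate 1.

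In the libraries kept, the chains of fibrillar collagens I, III and V were not called in SiHa. This is not independent of the choice of libraries, because pH 7.4 replicates 6 and 7 were kept apart for raised COL1A2 and VIM. With the libraries as labelled COL1A1 (-1.57, limma adjusted p = 0.0211), COL1A2 (-3.96, 0.0380) and COL3A1 (-0.82, 0.0425) were called lower in SiHa. COL5A1, COL5A2 and COL5A3 were not called there either. COL3A1 stood at 2469.6, 2446 and 3541 at pH 7.4 and 2989, 2727, 1817, 1045 and 981 at pH 6.5 (change -0.69 ± 0.35, limma adjusted p = 0.155), with replicates 6 and 7 of pH 6.5 the lowest. COL5A1, COL5A2 and COL1A1 stood at -0.52, -0.70 and -0.71 and were not called either, although the COL5A2 groups did not overlap (184, 194 and 201 at pH 7.4 and 155, 176, 149, 98.2 and 57.2 at pH 6.5). COL27A1, a cartilage type fibrillar collagen, fell in SiHa, from 389, 196 and 153 to 79.5, 72.8, 87.0, 38.8 and 14.5 (change -2.18 ± 0.53, adjusted p = 0.0107, and 0.0556 without pH 7.4 replicate 1). In HCT116 COL11A2 and COL9A2, collagens known from cartilage, changed by -0.81 ± 0.24 and -0.99 ± 0.23, from 273 to 152 and from 144 to 73.1. The COL11A2 call was lost when either library of pH 6.5, or replicate 6 or 7 of pH 7.4, was left out (adjusted p up to 0.218). The COL9A2 call was lost with replicate 1 of pH 6.5 left out (0.110). COL9A3 in SiHa and the transmembrane collagen COL13A1 in HCT116 were also called lower, at -0.78 and -0.70. Neither was among the genes picked by the naming rule. Both calls were lost in several omissions, COL9A3 in 7 of 8 (all but that of pH 6.5 replicate 1, adjusted p up to 0.179) and COL13A1 in 4, those of both libraries of pH 6.5 and of replicates 3 and 6 of pH 7.4 (up to 0.138).

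Of 29 tested genes that fold, modify or crosslink collagen, 8 rose and 1 fell in SiHa, and of 30 in HCT116 5 rose and 4 fell. Of all genes 15.0% rose and 16.2% fell in SiHa, and 9.11% rose and 11.1% fell in HCT116. In SiHa P3H3, a prolyl 3-hydroxylase family member, rose from 90.5 to 395, and TLL1, a protease that trims procollagen, from 212 to 672, while TLL2 fell from 17.1 to 5.03. In HCT116 the lysyl oxidase LOXL2, which crosslinks collagen, fell from 4429.9 to 825, and P3H2 from 35.7 to 6.29. FKBP10, a collagen chaperone, rose from 1017 to 3232.

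Of the 7 integrin beta chains 5 were called lower in SiHa (16.2% of all genes were lower), and 3 lower and 1 higher in HCT116 (11.1% and 9.11% of all genes). None was called in FaDu, where the share of all genes called was the smallest of the lines. ITGB8, an epithelial partner of αV, fell in SiHa, from 3351, 2827 and 2809 to 1261, 1977, 1671, 1547 and 1884 (change -0.86 ± 0.14, limma adjusted p = 0.00151). ITGB6, the other TGF-beta activating partner of αV, was at 45.8, 46.4 and 54.1 at pH 7.4 and 22.9, 18.2, 8.07, 3.45 and 2.56 at pH 6.5 in SiHa (change -2.43 ± 0.59, adjusted p = 0.0107). Both calls held in every omission. ITGB7 fell in SiHa (-1.14 ± 0.36) and in HCT116 (-1.02 ± 0.26), from 45.8 to 20.9 and from 85.8 to 42.3. In SiHa the groups overlapped and the call was lost on leaving out replicate 5, 6 or 7 of pH 6.5, or 1 or 5 of pH 7.4 (adjusted p up to 0.125). In HCT116 it was lost with replicate 3 of pH 6.5 left out (0.110). ITGB2, the leukocyte beta chain, was called lower in SiHa at 52.6, 40.6, 28.7, 32.7 and 11.1 at pH 6.5 against 83.5, 102 and 71.1 (change -1.48 ± 0.41), but not when replicate 1 or 4 of pH 7.4 was left out (adjusted p up to 0.0736).

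In HCT116 the beta chains ITGB5 and ITGB1 fell. ITGB5, a vitronectin receptor chain, held 8163, 4425, 3911, 3888 and 3711 at pH 7.4 and 2724 and 2200.3 at pH 6.5 (change -0.91 ± 0.26, limma adjusted p = 0.0284), and its call was lost without either library of pH 6.5 (up to 0.186). ITGB1 held 26539.9, 28378, 25739, 26795 and 27631 at pH 7.4 and 21582 and 18963 at pH 6.5 (change -0.42 ± 0.11, adjusted p = 0.0228), and was not called when replicate 3 of pH 6.5 was left out, or replicate 3, 6 or 7 of pH 7.4 (up to 0.0999). In SiHa both stayed uncalled, at 0.09 and -0.09. ITGB6, ITGB8, ITGB2 and ITGB1 were, like LAMA5, ITGA2, COL9A3, COL13A1 and COL23A1, named after their values were seen.

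Among the alpha chains other than ITGA6, ITGA3 in SiHa and ITGA2 in HCT116 fell. ITGA3 held 12419, 8508 and 10696 at pH 7.4 and 9191, 7613, 7454, 7049 and 5096 at pH 6.5 in SiHa (change -0.54 ± 0.17, limma adjusted p = 0.0359). The groups overlapped, and the call was lost on leaving out replicate 4, 5 or 6 of pH 6.5, or 1 or 5 of pH 7.4 (adjusted p up to 0.148). ITGA2, which pairs with β1 to bind collagen, held 7109, 6944, 6749, 7296 and 9151 at pH 7.4 and 4117 and 4406 at pH 6.5 in HCT116 (change -0.80 ± 0.14, adjusted p = 0.00169), a call that held in every omission. ITGA7, a laminin receptor chain of muscle, rose in HCT116, from 861, 597, 612, 537 and 671 to 1022 and 1129 (change 0.73 ± 0.18, adjusted p = 0.0139, and up to 0.0910 without either library of pH 6.5). ITGA5, the fibronectin receptor chain, did not overlap in SiHa (3982, 3529 and 3463 at pH 7.4 and 5750.3, 7441, 4767, 4288 and 4033 at pH 6.5) but missed the threshold (change 0.49 ± 0.17, adjusted p = 0.0535). ITGA11 was at 107, 70.1 and 68.8 at pH 7.4 and 218, 239, 204, 152 and 64.9 at pH 6.5 in SiHa, higher at pH 6.5 in all libraries but replicate 7, and was not called either (change 0.99 ± 0.38, adjusted p = 0.0673).

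In HCT116 the groups of ITGAV and of ITGB8 did not overlap, by small gaps, yet both genes missed the threshold. The share of all genes without overlap is not given here. ITGAV, the vitronectin receptor chain, was at 4882, 4317, 4307, 3988 and 4248 at pH 7.4 and 2539 and 3907 at pH 6.5 (change -0.46 ± 0.16, limma adjusted p = 0.0605). Its partner ITGB8 was at 961, 1170.2, 488, 411 and 284 at pH 7.4 and 208 and 261 at pH 6.5 (change -1.30 ± 0.44, adjusted p = 0.0563). ITGAV, ITGAE, ITGA1, ITGA9, ITGA10, ITGA11 and ITGAX were called in no line. Of these ITGAE, which with β7 binds E-cadherin, and the collagen receptor chains ITGA1 and ITGA10 reached the level in all 3 lines or in 2, and their changes in SiHa were 0.14, -0.08 and 0.18.

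Inside the cell, of 34 adaptor and focal adhesion genes tested 4 rose and 12 fell in SiHa (15.0% and 16.2% of all genes) and 1 rose and 8 fell in HCT116 (9.11% and 11.1%). In SiHa CAV1, the coat protein of caveolae, fell from 7534 to 3442, the tensin TNS3 from 7671 to 3894 and LIMS2 from 164 to 68.1. In HCT116 the scaffold NEDD9 fell from 86.8 to 11.4 and the kinase PTK2B from 772 to 326, while TGFB1I1 rose from 383 to 964. Of other receptors for collagen and laminin, 1 of 11 tested rose and 3 fell in SiHa, and 1 rose and 1 fell of 12 in HCT116, near the shares of all genes called (31.2% and 20.2%). MRC2, which takes up collagen fragments, was the one that rose in both, from 4839 to 6738 and from 908 to 1497. The hyaluronan receptor CD44 and the LAMA5 receptor BCAM fell in SiHa, from 11575 to 6053 and 5835 to 3482, and MCAM fell in HCT116, from 1537 to 831.

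In FaDu every change rests on 1 library of pH 7.4. The called members were mostly higher at pH 6.5, among them collagens VI, VII, XXIII and XXIV. COL7A1 (ENSG00000114270) was higher at pH 6.5, at 3144, 7377, 7120.2, 7504 and 6751 against 1272 (change 2.26 ± 0.44, limma adjusted p = 0.0323). LAMA1 stood at 172, 151, 244, 273 and 180.0 against 54.9 (1.84 ± 0.34, adjusted p = 0.0266). COL24A1, COL23A1 and COL6A1 were called higher at 2.01, 2.53 and 0.74, and the platelet integrin chain ITGA2B at 1.41, from 52.7 to 143. LAMA3 and ITGA3 were called lower, LAMA3 at 1827, 1729, 1674, 1856 and 1649 against 2693 (-0.63 ± 0.12) and ITGA3 at 18371, 15685, 14919, 15587 and 16630.1 against 26667 (-0.72 ± 0.14). Some of the largest differences were not called. COL5A3, a fibrillar chain, was at 77.0, 5.55, 15.7, 8.36 and 3.31 against 323 (adjusted p = 0.0774) and ITGB2 at 391, 121, 121, 118 and 105 against 750.2 (adjusted p = 0.0728). In both genes replicate 1 of pH 6.5 lay between the other 4 libraries and the library of pH 7.4. They were named after their values were seen.

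The other collagens that reached the level in FaDu alone were low. COL11A1, a fibrillar chain, stood at 45.8, 116, 206, 175 and 202 at pH 6.5 and at 36.2 in pH 7.4 replicate 1. COL8A1, a short-chain collagen of vessel and corneal membranes, stood at 14.6 to 164 and at 135, with replicate 1 the highest at pH 6.5, and its relative COL8A2 at 98.9, 52.7, 80.5, 76.2 and 59.6 at pH 6.5 and 50.5 at pH 7.4. In COL8A1 and COL28A1 the range of the acidic libraries took in the value of pH 7.4. COL26A1 was at 37.5, 91.6, 108, 61.6 and 99.4 at pH 6.5 and 19.8 at pH 7.4, and COL28A1 at 124, 215, 163, 118 and 264 and at 119. None of these 5 was called between the pH groups. The transmembrane collagen COL23A1, which was called, was at 86.4, 70.1, 94.5, 122 and 104 against 15.4, and COL24A1 at 73.9, 121, 115, 108 and 172 against 27.5.

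These FaDu calls did not hold when libraries were left out. Leaving out any 1 of replicates 2, 3, 4 and 5 of pH 6.5 ended the calls of COL7A1, COL24A1, COL6A1, ITGA2B, ITGA3, ITGA6 and LAMA3. Those of LAMA1 ended with replicate 3, 4 or 5 left out, and those of COL6A2 and COL23A1 with replicate 3 or 4 left out. Over these omissions the limma adjusted p lay between 0.0552 and 0.104. Replicate 1 of pH 6.5 stood apart from the other 4 libraries of its group: of 55 members with a FaDu mean of at least 50, it lay outside the range of replicates 2 to 5 for 48, and for 37 of these on the same side as pH 7.4 replicate 1. The share of all genes for which that library did so is not given here, so these counts describe the library and are no result about the members. Without pH 6.5 replicate 1 more members were called in both directions. The share of all genes called in that omission is not given here either. The squamous marker list summed to 489179 in pH 7.4 replicate 1, 437907 in pH 6.5 replicate 1 and 282475 to 325826 in pH 6.5 replicates 2 to 5. KRT5 held most of the squamous sum, and KRT13, DSC3 and PKP1 of that list had higher means at pH 6.5, against the fall of the sum. The fibroblast list summed to 967 at pH 7.4 and 1349 to 1783 at pH 6.5, and the endothelium list (7 of 8 genes measured) to 291 and 420 to 2429. The endothelium sum rose mainly through CDH5. ESAM also had a higher mean at pH 6.5, while VWF, KDR, TEK, ROBO4 and EMCN had lower ones. The part of these lists in the results was not tested. COL17A1 in FaDu had the same order, at 13406 in pH 7.4 replicate 1 and 12265, 6279, 6400.2, 6369.8 and 5401 at pH 6.5, and was not called (adjusted p = 0.166). Of the wider lists the basement membrane and matrix proteins HSPG2 (perlecan, from 141 to 531), NPNT (from 86.8 to 363) and FBN1 (from 86.8 to 169) were higher. PLEC was lower (from 25602 to 14509) and NEDD9 higher (from 414 to 2767). These differences too rest on the single library of pH 7.4. TLN2, an integrin-binding talin, and SDC2, a proteoglycan receptor, were lower, from 347 to 113 and 1007 to 335, and SV2A and the procollagen protease ADAMTS2 were higher, from 124 to 460.4 and 3.30 to 16.2.

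A test of the difference itself asked whether the pH change was the same in the 3 lines. It called 24 of the 64 members, where it called 33.1% of all genes. The smallest adjusted p belonged to LAMA3 (2.64e-07; changes of 0.98 in SiHa, -2.21 in HCT116 and -0.63 in FaDu) and ITGB4 (4.78e-07; -2.03, 0.88 and -0.29). Then came COL12A1 (limma adjusted p = 1.16e-05; -0.45, -3.65 and -1.21) and COL17A1 (0.000174, with -4.01, -2.13 and -0.93). LAMB1 had its largest change in HCT116 (adjusted p = 0.000965, with 0.00, 1.10 and 0.35). LAMA1 was near the floor in HCT116 (adjusted p = 0.00272, with 1.65, -0.80 and 1.84). These 6 were called in each of the 20 omissions that could be fitted. Of the members called in all 3 lines, ITGA6 differed between lines (adjusted p = 0.00349) and COL6A2 was not called as differing (adjusted p = 0.497).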

How the data were processed

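The members, the gene lists and the libraries kept apart were chosen with earlier results of these data known. The deposited table gives, as signal values, read counts per Ensembl gene divided by 1 size factor per library; the submitters' processing notes name bcl2fastq 2.20, Trimmomatic 0.38, FastQC, STAR 2.6.1d, DESeq2 1.22.2 and GRCh37. Whole reads came back from 100% of the values, within 0.01 of a step. Depth per library was 21.02 to 55.68 M reads. With limma 3.58.1 in R 4.3.3, log2(normalised count + 1) was fitted with a mean-variance trend for genes whose higher group mean reached 10. Each pH comparison was fitted within its line, and the test across lines in 1 fit of all 6 groups. That fit also gave the ranking from which genes were named between lines, with no test reported. P-values were adjusted over all genes tested (Benjamini-Hochberg), with 0.05 as the threshold. Named genes were, per pH comparison, up to 8 called members in each direction with a mean of at least 100, by size of change; 5 per direction between lines, 6 for the test across lines and 3 per pathway list. The floor of 3 reads covers counting error only. Alternatives were another pseudocount, filter, scaling (TMM), tool (edgeR 4.0.16 and DESeq2 1.42.0 on the recovered reads), sample set and replicate block. The code was tested on simulated data. Of the members, 20 share exon sequence with a gene on the other strand and 7 with one on the same strand, and reads of the 2 genes may not be told apart there. One member is counted among the 64 but its own values are not reported here.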

Additional observations from a re-analysis of the deposited data

Results flagged for a closer look

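In 6 of 90 gene and group pairs examined (6.67%, where chance gives about 1 in 20) a single library lay far from the others of its group. Of these 4 were in FaDu pH 6.5 replicate 1: COL17A1 at 12265, with the other 4 libraries between 5401 and 6400.2, COL7A1 at 3144 against 6751 to 7504, ITGA2B at 108 against 146 to 157, and ITGA6 at 4229.9 against 2075 to 2197. In each of these genes that library lay on the side of FaDu pH 7.4 replicate 1. ITGB5 stood at 8163 in HCT116 pH 7.4 replicate 1, with the others between 3711 and 4425, and at 10362 in SiHa pH 6.5 replicate 4, with the others between 5455 and 6502. The pH change differed between the 3 lines, by limma's test of the difference itself, most clearly for LAMA3 (adjusted p = 2.64e-07), ITGB4 (4.78e-07), COL12A1 (1.16e-05), COL17A1 (0.000174), LAMB1 (0.000965) and LAMA1 (0.00272).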

How the results depend on the processing

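Pseudocount 5, TMM factors, a mean of at least 50 and edgeR kept every count of called members within 1.5 times. With the libraries as labelled, members called higher in SiHa were 7 (against 4), lower in HCT116 7 (against 13), and in FaDu 17 higher and 21 lower (against 7 and 3). There ITGB4 (-1.84), ITGA7 (-0.61), COL18A1 (-0.66), COL6A2 (-0.20) and LAMB3 (0.031) changed sign in HCT116, and COL6A2 (-1.94) and COL6A1 (-2.23) in FaDu. In both lines the libraries put back carry genes of another line. Without a filter on low values 8 were lower in HCT116, and 4 higher and 1 lower in FaDu. In FaDu DESeq2 gave 11 higher and 11 lower, and 1 fit over all libraries kept gave 8 lower. The cause was not tested. Leaving out 1 library gave 2 to 5 higher and 9 to 19 lower in SiHa, 1 to 7 and 6 to 13 in HCT116, and 0 to 16 and 0 to 18 in FaDu. The SiHa counts were 2 higher without replicate 5 of pH 6.5 or replicates 4 or 5 of pH 7.4, and 9 lower without replicate 1 of pH 7.4. Those of HCT116 were 1 higher without replicate 1 of pH 6.5, and 3 higher and 6 lower without replicate 3 of it. Those of FaDu were 0 without replicate 3 or 4 of pH 6.5. The FaDu library of pH 7.4 could not be left out. The shares of all genes called in these omissions are not given here, so the counts are no result about the members.

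Same-numbered SiHa libraries deviated from their group means with correlations of 0.316, 0.0478 and 0.0790, each sample best with its own number. Those of HCT116 did so with 0.173 and 0.0553, the latter not best with its own number. The main fits did not take the numbers as pairs, and these correlations do not decide whether same-numbered libraries share an effect. In FaDu the only library kept at pH 7.4 was replicate 1, and pH 6.5 replicate 1 lay on its side for 37 of 55 members (share of all genes not given here). The other acidic FaDu libraries differ from it in both pH and number, which cannot be told apart there. With the number as a replicate block 8 members were higher in SiHa, and 7 of the named calls were lost: COL12A1 and ITGB7 in SiHa, and ITGA6, ITGA7, ITGB7, COL18A1 and COL6A2 in HCT116. In FaDu it could be fitted only as labelled: 15 higher and 23 lower, with COL6A2 at -1.94 and COL6A1 at -2.23.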
